A study of Arabidopsis thaliana with 6 samples.

Results

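WRKY transcription factors were followed in whole roots of Arabidopsis thaliana, accession Col-0, at an age of 4 weeks. The members are the genes whose symbol in the array annotation holds WRKY and a number, on probe sets that name exactly 1 gene, with 1 probe set per gene. The rule gave 6 of the 13350 genes that have such a probe set: WRKY6 (AT1G62300), WRKY20 (AT4G26640), WRKY22 (AT4G01250), WRKY42 (AT4G04450), WRKY47 (AT4G01720) and WRKY53 (AT4G23810). The RefSeq gene table lists 67 WRKY symbols for the species, so most of the family is not analysed here, and nothing below describes the family as a whole. All plants were wild type and grew in dilute hydroponic solution at 28 °C. Because roots were taken whole, the cell types of the root were measured together. Below, control 1 to 3 and cadmium 1 to 3 stand for the arrays by label and replicate number. A group of 3 arrays is labelled control and had no cadmium. The other group of 3 arrays is labelled cadmium, a toxic heavy metal, and had 200 µM of it for 6 h. The labels call the replicates biological and do not say whether each came from its own plants or culture.

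WRKY proteins are plant transcription factors named after a conserved stretch of amino acids in their DNA-binding domain, with which they bind the W-box element of promoters. Many are transcribed within minutes to hours of wounding, pathogen signals or abiotic stress, downstream of receptor kinases and mitogen-activated protein kinases. They often act on the promoters of other WRKY genes or on their own. Their classes are set by the number of WRKY domains and the form of the zinc finger.

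Signals are linear MAS5 intensities, in which the probes of a set are combined to 1 value for each array. The 2% trimmed mean over all probe sets was 500.0 in replicates 1 and 3, but 216 in control 2 and 227 in cadmium 2, so replicate 2 was scaled differently. Replicate 2 also stood apart in a control of RNA quality, actin signal at the 3' end over that at the 5' end (log2), at 2.05 and 3.22 against 0.07 to 0.34 elsewhere. A second actin ratio, from other probe sets, showed a smaller gap, at 3.46 and 3.72 against 2.41 to 2.99. A ubiquitin ratio was 0.37 to 0.59 on the cadmium arrays and -0.02 to 0.28 on the control arrays, higher on the cadmium array of every replicate. Of 7 root hair markers 3 had a probe set, and EXPA7 and EXPA18, expansins of root hairs, lay at or above the 51.3 percentile of every array, while the third, XTH26, ranged from 3.92 to 61.7. Of 14 shoot photosynthesis markers 2 had one, and RCA, rubisco activase, lay between the 74.6 and 91.7 percentiles and PRK, phosphoribulokinase, between 15.2 and 67.4. For the endodermis and stele 0 of 11 markers had a named probe set. The pairs of replicates 1 and 3, which share their scaling, were also fitted alone, 2 against 2 arrays, and are called the batch, although no label names one. That split was made with the opposite signs of WRKY6 and WRKY53 in replicate 2 already known, so every p-value from it is conditional on the split and is no independent evidence of a direction. Whether the labels within a pair are exchanged was not tested, and every sign below is that of the labels.

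WRKY6 and WRKY53 were lower on the arrays labelled cadmium in replicates 1 and 3, by 12.7-fold and 9.67-fold, and both had a higher signal on the cadmium array than on the control array in replicate 2. WRKY22 had the same signs with smaller differences, WRKY47 and WRKY20 differed by at most 1.49-fold in any pair, and WRKY42 was dim on every array.

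WRKY6, a factor of leaf senescence and pathogen responses that in roots represses the phosphate exporter gene PHO1, gave signals of 4892 in control 1 and 4710 in control 3, against 419 in cadmium 1 and 339 in cadmium 3. Replicate 2 gave 273 in control 2 and 1833 in cadmium 2. The array labelled control was thus the brighter one in replicates 1 and 3 and the dimmer one in replicate 2, and the groups of all 6 arrays overlapped. Within replicates 1 and 3 the log2 difference was -3.67 ± 0.21 (SE, limma adjusted p = 0.00934), with an SD of 0.04 between the control arrays and 0.21 between the cadmium arrays. It ranked at 10 among 15909 probe sets by its p-value there. The difference in replicate 2 was 2.75 (log2, 6.71-fold), with no replicate check of its own.

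WRKY53, a regulator of the onset of leaf senescence and of basal defence, gave 2771 in control 1 and 1628 in control 3, against 173 in cadmium 1 and 279 in cadmium 3. Replicate 2 gave 646 in control 2 and 1321 in cadmium 2. The groups did not overlap within the batch, with cadmium lower, as for 16.9% of all tested probe sets. The arrays of each group were farther apart than for WRKY6, with SDs of 0.54 and 0.49 (log2). The log2 difference in the batch was -3.27 ± 0.38 (SE, limma adjusted p = 0.0211), and -4.01 in replicate 1 against -2.54 in replicate 3. Without the cadmium array of replicate 1 it was -2.93 and no longer passed the threshold of 0.05 (adjusted p = 0.0679). In replicate 2 it was 1.03 (2.05-fold).

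WRKY22, which acts below the mitogen-activated protein kinases MPK3 and MPK6 in the response to bacterial flagellin, gave 1172 in control 1 and 815 in control 3, against 446 in cadmium 1 and 367 in cadmium 3. Replicate 2 gave 305 in control 2 and 421 in cadmium 2. Control and cadmium did not overlap within the batch, with cadmium lower, as for 16.9% of all tested probe sets. The 3 pairs had the signs of WRKY6, as for 18.8% of them. The log2 difference in the batch was -1.27 ± 0.27 (SE) and missed the threshold (limma adjusted p = 0.0705). Without control 1 it was -1.01, without cadmium 1 -1.41, without control 3 -1.53 and without cadmium 3 -1.13.

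WRKY47, a relative of WRKY6 known for its part in aluminium tolerance through genes of cell wall modification, gave 781 in control 1 and 924 in control 3, against 614 in cadmium 1 and 698 in cadmium 3. Replicate 2 gave 108 in control 2 and 114 in cadmium 2, so that the labelled groups were closer to each other than the replicates were. The log2 difference was -0.38 ± 0.22 (SE, limma adjusted p = 0.346) in the batch and 0.08 in replicate 2. WRKY20, a member of the class with a pair of WRKY domains, gave 444 in control 1 and 558 in control 3, against 484 in cadmium 1 and 374 in cadmium 3, and these groups overlapped. Replicate 2 gave 190 in control 2 and 134 in cadmium 2. Its log2 difference was -0.23 ± 0.25 (SE, limma adjusted p = 0.613) in the batch, 0.12 in replicate 1 and -0.58 in replicate 3.

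WRKY42, a close relative of WRKY6 that also represses PHO1, was the only member under the signal filter, with a mean of 22.1 over 6 arrays against the required 73.0. It gave 19.1, 44.4 and 3.31 in control 1, 2 and 3, and 19.8, 40.7 and 5.31 in cadmium 1, 2 and 3. All lay under 62.1, the 30th percentile of all signals, where their order has no meaning. It was not tested with the others, and the close relatives WRKY6 and WRKY42 thus differed in whether a change could be measured at all.

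**Figure D1:**
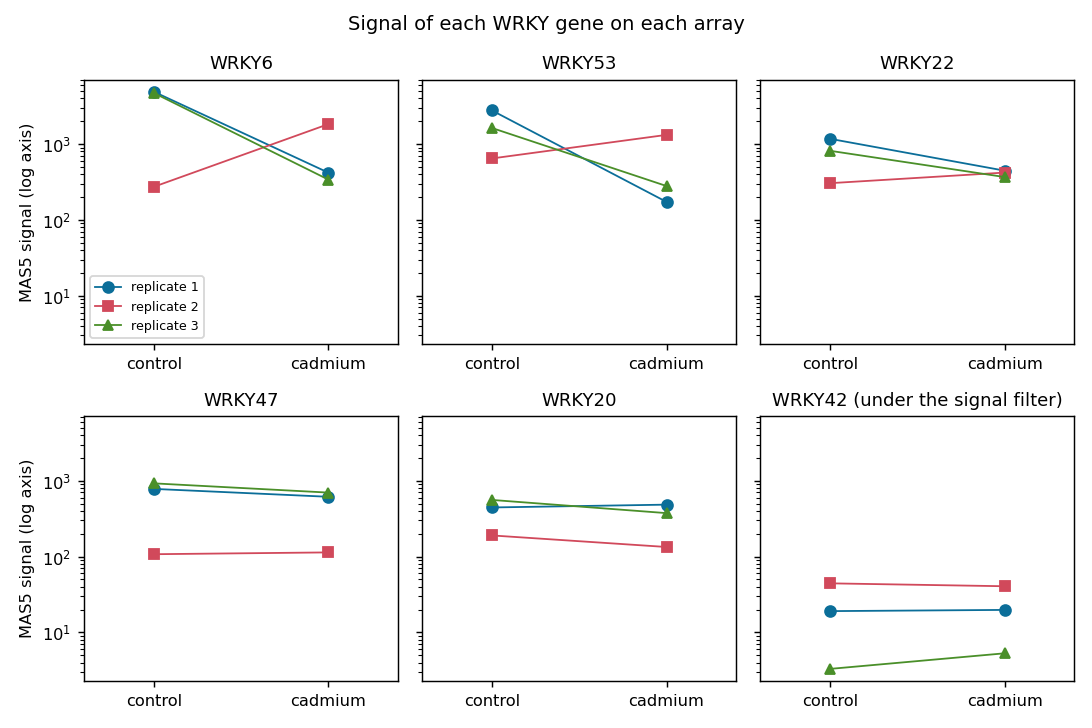
Signal of each of the 6 WRKY genes on the control and cadmium arrays, in MAS5 units on a log axis, with a line joining the 2 arrays of each replicate. The lines of WRKY6 and WRKY53 fall in replicates 1 and 3 and rise in replicate 2, while those of WRKY47 and WRKY20 differ by at most 1.49-fold.

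Because the arrays of replicate 2 were scaled differently, the place of each gene within its own array was also read, as the percentile of its signal among the 22746 probe sets that are not controls. WRKY6 lay at the 97.8 percentile in control 1, at 97.7 in control 3 and at 97.3 in cadmium 2. It lay at 64.4 in cadmium 1, at 60.2 in cadmium 3 and at 75.5 in control 2. Its 3 highest places were thus close to each other, and control 2 lay between those and the low arrays. WRKY53 lay at 95.0 in control 1 and 90.6 in control 3, against 42.3 in cadmium 1 and 55.5 in cadmium 3. In control 2 it lay at 90.3 and in cadmium 2 at 95.5, so it was low in neither. Control 2 and control 3 had WRKY53 at nearly the same percentile, whereas WRKY6 differed there by 22.2 points. WRKY22 lay at 86.6 in control 1, 81.1 in control 3, 66.1 in cadmium 1, 62.1 in cadmium 3, 78.0 in control 2 and 83.9 in cadmium 2. WRKY47 lay at 74.3 to 83.3 on the arrays of the batch and at 52.0 and 55.3 in replicate 2, below every array of the batch on this scale too. Of the tested members WRKY20 varied least, from 59.7 to 74.2.

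**Figure D2:**
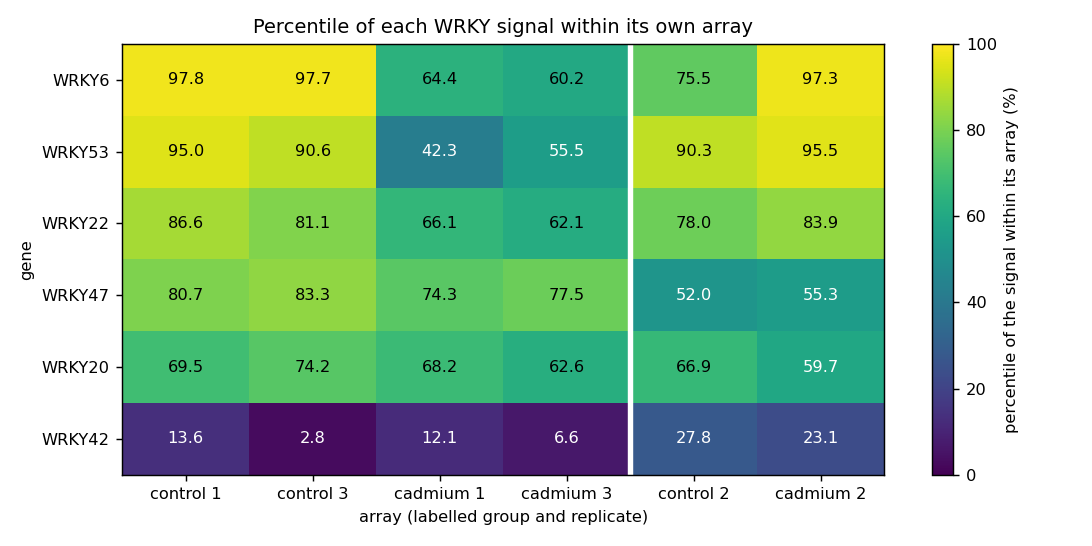
Percentile of each WRKY signal within its own array, for the 6 genes in rows and the 6 arrays in columns, with the arrays of replicate 2 to the right of the white line. Along its row WRKY6 is at 97.3 or above on 3 arrays and at 75.5 or below on the others, and WRKY53 is at 55.5 or below on the cadmium arrays of replicates 1 and 3 alone.

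Over all 6 arrays, the comparison the labels set out, 0 of the 5 tested WRKY genes passed, against 0% of 15909 probe sets by limma. At an unadjusted p under 0.05 there were 1 of 5 and 84 of 15909. WRKY53 had the widest mean difference of the members, -1.84 ± 0.87 (log2, SE), followed by WRKY6 at -1.53 ± 1.04, each with an adjusted p of 1.

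Within the batch of replicates 1 and 3, 2 of the 5 tested members were lower past the threshold, beside 3.24% of all tested probe sets, or 516. After centring each array on its median 627 were lower and 122 higher, against 205 higher before. The groups did not overlap, with cadmium lower, for 4 of 5 members and for 16.9% of all tested probe sets. The median difference of the 5 was -1.27 (log2), while that of all tested probe sets was 0.22, and after centring on the array medians WRKY6 and WRKY53 stood at -3.86 and -3.46. In replicate 2 the medians were 0.46 for the 5 members and -0.11 for all. The members passed the filter on their mean signal, to which the bright arrays contribute most, and the earlier results of these data were known when the family was chosen. These counts therefore describe the members and test nothing about the family. In roots taken whole, fewer cells with a transcript and less of it per cell cannot be told apart.

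The difference between the pairs was fitted over all 6 arrays, as the replicate 2 difference minus the difference in replicates 1 and 3, with the single arrays of replicate 2 taken to vary like the rest. Since replicate 2 was set apart with the signs known and adds no residual degrees of freedom, this fit gives the size of the opposition and is no independent test of it. It was 6.42 ± 0.36 (log2, SE) for WRKY6 (limma adjusted p = 0.00965) and 4.31 ± 0.65 for WRKY53 (limma adjusted p = 0.0301). Both passed, beside 5.09% of all tested probe sets in this direction, or 809. After median centring 934 passed in this direction and 342 in the other, against 612 before. For WRKY22 the difference was 1.74 ± 0.47 (limma adjusted p = 0.0815), which missed the threshold. For WRKY47 and WRKY20 it was 0.45 ± 0.38 and -0.28 ± 0.44 (limma adjusted p = 0.476 and 0.710), and the latter was 0.01 after median centring. Of the 5 members, 4 were lower on the cadmium arrays of replicates 1 and 3 and higher on that of replicate 2, a pattern shown by 18.8% of all tested probe sets. On the percentiles above, which do not depend on the scaling of an array, these 4 genes had the same signs. The actin ratios also set replicate 2 apart, and their part in the signs was not tested.

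**Figure D3:**
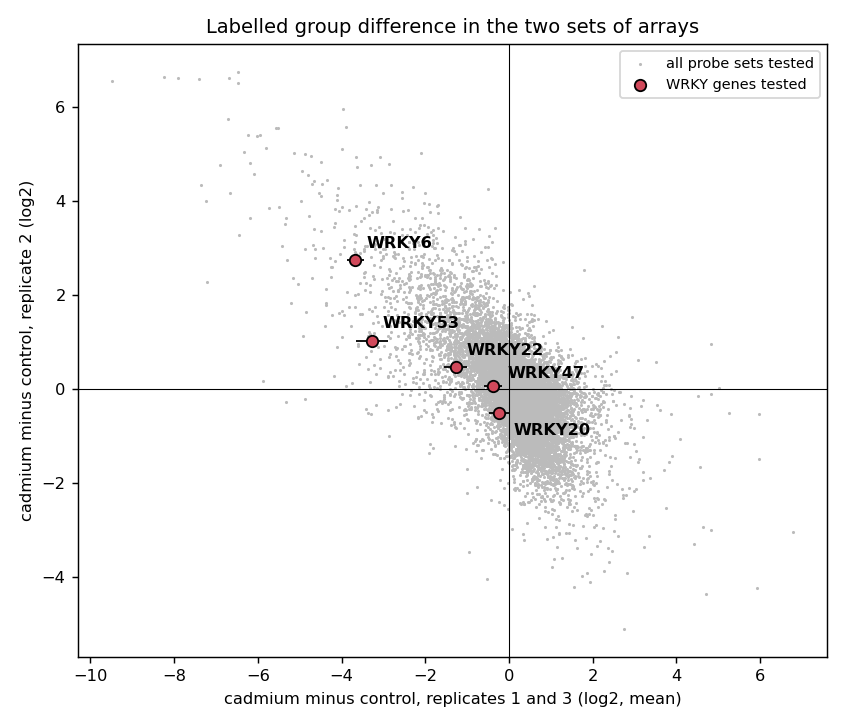
Cadmium minus control by label in replicates 1 and 3 (horizontal axis, mean log2 difference, with the SE of WRKY genes as bars) against that in replicate 2 (vertical axis, log2), for 15909 probe sets in grey and the 5 tested WRKY genes in red. WRKY6 at -3.67 and 2.75 and WRKY53 at -3.27 and 1.03 lie in the upper left, whereas WRKY47 and WRKY20 lie near the centre.

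The members differed in pattern among themselves. With each array centred on its median, WRKY6, WRKY53 and WRKY22 had pairwise Pearson correlations of 0.87 to 0.95 over 6 arrays. The genes were read on the same arrays, and the arrays of replicate 2 were scaled differently. WRKY47 and WRKY20 correlated with each other at 0.73 and with these 3 genes at -0.12 to 0.35. The span from the dimmest to the brightest array on the centred log2 scale was 4.35 for WRKY53 and 4.05 for WRKY6, and 2.40% and 3.04% of all tested probe sets had a wider one. It was 2.13 for WRKY47, 1.88 for WRKY22 and 1.003 for WRKY20, against a median of 1.23. The wide span of WRKY47 lay between the replicates and not between the labelled groups.

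The genes with the pattern most like WRKY6 were sought among 8616 tested genes, by Pearson correlation of centred log2 signals over 6 arrays. They were AT2G16900 (r = 0.997), AT2G32190 (r = 0.996) and AT4G37290 (r = 0.994). AT2G16900 gave 3577 in control 1, 3059 in control 3, 487 in cadmium 1 and 402 in cadmium 3, then 327 in control 2 and 1533 in cadmium 2, nearly the course of WRKY6. AT4G37290, the precursor of a secreted peptide induced by pathogen signals, gave 1674 in control 1 and 1309 in control 3, against 13.6 in cadmium 1 and 15.7 in cadmium 3. With signals under 62.1 set to that value it was at least 23.9-fold lower there (limma adjusted p = 0.0121 in the fit with that floor). For WRKY53 they were ZCF37 (r = 0.997), AR781 (r = 0.995) and AT3G10930 (r = 0.992). AR781 gave 7329 in control 1, 4042 in control 3, 387 in cadmium 1 and 540 in cadmium 3, then 1841 in control 2 and 2658 in cadmium 2. Its signal in control 2 was thus, as for WRKY53, well above the cadmium arrays of the batch. Likeness over 6 arrays was common, and 382 genes for WRKY6 and 283 for WRKY53 had r above 0.9. The genes named here were picked for their likeness over these same arrays. Their falls in the batch, the p-value above and the signal of AR781 in control 2 follow from that choice and are no separate evidence.

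**Figure D4:**
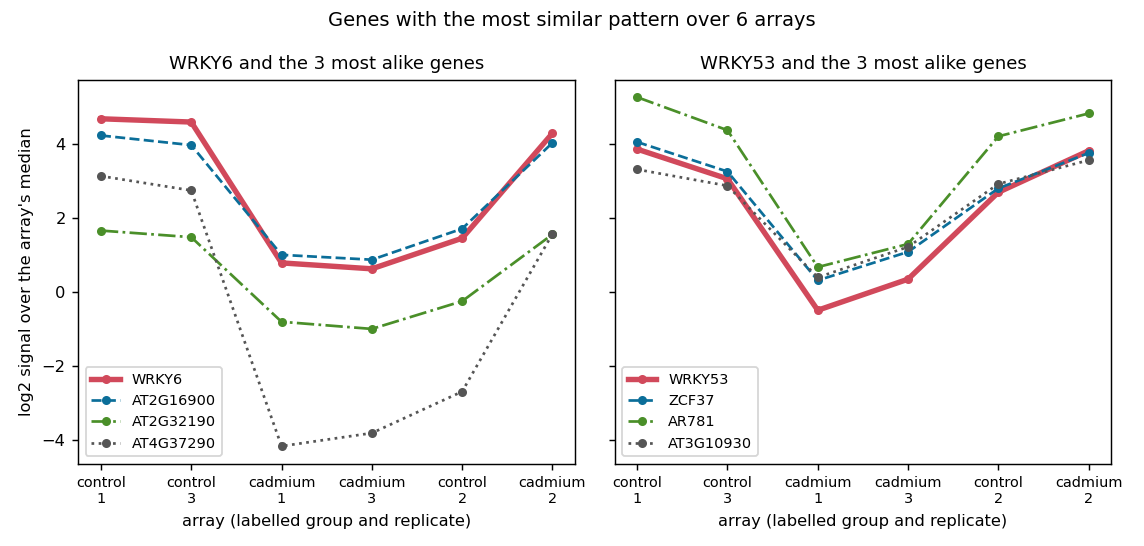
Log2 signal over the median of its array (vertical axis) on the 6 arrays (horizontal axis) for WRKY6 and for WRKY53 (thick red lines), each with the 3 genes of highest correlation. WRKY6 and its 3 genes are near their lowest on the control array of replicate 2, where WRKY53 and its 3 genes are nearer to their highest.

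Of the genes around the WRKY factors few had a named probe set. Among 27 regulators of WRKY factors, such as receptor kinases, mitogen-activated protein kinases and proteins that bind WRKY factors, 1 was tested and 0 passed in the batch. It was BIK1, a kinase that relays signals of the flagellin receptor, with 1811 in control 1, 1966 in control 3, 942 in cadmium 1, 1137 in cadmium 3, 383 in control 2 and 853 in cadmium 2. Its log2 difference was -0.87 ± 0.21 (SE, limma adjusted p = 0.0898) in the batch and 1.16 in replicate 2. The difference between these was 2.02 and passed (limma adjusted p = 0.0386). Among 29 reported WRKY targets 1 was tested and 0 passed, SAG101, a lipase-like partner of the immune regulator EDS1, at -0.17 (limma adjusted p = 0.782). Among 29 other early stress transcription factors 1 was tested and 1 was lower, beside 3.24% of all tested probe sets. It was STZ, a zinc finger repressor also called ZAT10, at -3.22 ± 0.25 (SE, limma adjusted p = 0.0121) in the batch and 0.52 in replicate 2. STZ gave 3653 in control 2 and 5248 in cadmium 2, both above its 1045 in cadmium 1 and 1601 in cadmium 3, as was the case for WRKY53. XTH26, a wall enzyme of root hairs, gave 3.63 in control 1, 16.1 in control 3, 130 in cadmium 1, 362 in cadmium 3, 42.8 in control 2 and 83.5 in cadmium 2 (limma adjusted p = 0.0778 in the batch). Its control signals all lay under 62.1, where their order has no meaning, and that p-value was computed without the floor. Of 3 tested root hair markers 0 passed. Their summed signal was 421, 369 and 843 in control 1, 2 and 3, and 998, 390 and 1919 in cadmium 1, 2 and 3, and its part in the WRKY differences was not tested. Of 2 tested shoot markers 0 passed either, with PRK at 0.41 (limma adjusted p = 0.421) and summed signals of 1735, 288 and 1636 in control 1, 2 and 3, and 2103, 342 and 1794 in cadmium 1, 2 and 3. Both sets of sums are of signals as deposited. Replicate 2 was scaled differently, so its sums cannot be set against those of the other replicates.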

How the data were processed

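The deposited values are linear intensity values for 22810 probe sets on 6 ATH1 arrays, made by the authors with MAS5 per the submitters' processing notes; its version and scaling target are not given in the sources used here. Titles gave groups and replicate numbers, and the descriptions number the same pairs differently. Log2 values were taken as deposited, with 7 signals of 0, all on 1 array, set to that array's lowest positive value. After leaving out 64 control probe sets and those with a mean under the 30th percentile (73.0), 15909 were fitted with limma 3.58.1 in R 4.3.3 (eBayes with an intensity trend, two-sided, Benjamini-Hochberg over all probe sets, threshold 0.05). Residual degrees of freedom were 4 with all arrays, and 2 for replicates 1 and 3 and for the difference between pairs. The fits were tested on simulated data that held no shift in the scaling of replicate 2 and took their spread from replicates 1 and 3. There the fit of replicates 1 and 3 recovered 0% of log2 changes of 1, 4% of 2, 24% of 3 and 54% of 4. With all 6 arrays 34% to 90% were recovered. For the difference between pairs 0% to 72% were recovered, with the change put into replicates 1 and 3 and its negative into replicate 2. The difference between pairs was there wider than the log2 change named. Fewer would be recovered for a difference between pairs of that size. A gene that missed the threshold may therefore have changed. P-values rest on the spread between arrays of a group, moderated by limma towards that of all tested probe sets. The small number of arrays limits the precision. In the fit of the difference between pairs, no spread within replicate 2 enters.

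The annotation names 1 gene for 13513 probe sets, several for 503 and none for 8730. Locus names come from the RefSeq table of TAIR10.1. The members, lists and the split by replicate were chosen with earlier results of these data known. The genes named are all members, the 3 most like WRKY6 and WRKY53, and from each list those past the threshold or, with none, the 1 with the widest difference. EXPA7, EXPA18, RCA, ZAP1, BZIP60 and the bHLH genes fall outside that rule and were chosen after their values were seen. Same-numbered arrays did not deviate together throughout (correlations of deviations 0.11, -0.04 and 0.29), so no pairing was used. Alternatives were quantile normalization, median centring, a floor of 62.1, no filter, no trend, a replicate block and leaving out each array.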

Additional observations from a re-analysis of the deposited data

Results flagged for a closer look

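WRKY6 and WRKY53 differed between replicate 2 and the batch of replicates 1 and 3 in the fit of that difference, by 6.42 and 4.31 on the log2 scale. Replicate 2 was set apart with these signs already known and has 1 array for each label, so the fit is no independent test. The sign was negative in both pairs of the batch and positive in replicate 2 for each gene. Groups of 3 arrays are too small for a check of single outlying arrays.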

How the results depend on the processing

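Under quantile normalization, median centring, the floor, no filter and no trend, the counts of WRKY genes past the threshold stayed at 2 in the batch, 0 over all 6 arrays and 2 for the difference between pairs. With 1 array left out the batch count ranged from 1 to 3. It was 1 without the cadmium array of replicate 1, where WRKY53 missed the threshold, and 3 without the control array of replicate 3, where WRKY22 passed. With the replicate block it was also 3, WRKY22 passing at an adjusted p of 0.00504. The deviations did not show a pairing of the arrays by number, but groups of 3 arrays cannot exclude one. Control replicate 2 and cadmium replicate 2 each correlated better with another number than with their own. Both were nevertheless set apart from the other arrays by their scaling. The only sign that turned was that of WRKY20 between the pairs, to 0.00617 after median centring, where the difference was small under both. Counts over all probe sets moved more. In the batch, 721 became 353 with no trend, 3521 with the replicate block, 142 and 146 without the cadmium array of replicate 1 or 3, and 1266 without the control array of replicate 3. Between the pairs, 1421 became 2062 with quantile normalization, 1059 of them with the replicate 2 difference above and 1003 below. It became 1276 with median centring, 1067 with the floor, 815 with no trend and 916 with no filter. Over all 6 arrays, 1 probe set passed without control replicate 1 and 0 in each other alternative. Without the filter WRKY42 was at 0.37 in the batch (adjusted p = 0.904), on signals too low to order.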

Other observations

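ZAP1, which the RefSeq table also calls WRKY1, has WRKY only among its synonyms and so is no member. It gave 574, 155 and 480 in control 1, 2 and 3, and 607, 107 and 583 in cadmium 1, 2 and 3. Its log2 difference in replicates 1 and 3 was 0.18 ± 0.22 (SE, limma adjusted p = 0.638), and like WRKY47 it was dimmer on both arrays of replicate 2 than on the others, at the 61.9 and 53.5 percentiles against 70.8 to 74.8.

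Other families of transcription factors found by symbol were counted in the same way in the batch; they were chosen after the data were seen, and no difference between families was tested. Of 10 tested bZIP genes 1 was lower, beside 3.24% of all tested probe sets. It was BZIP60, a factor of the unfolded protein response, at -1.33 (limma adjusted p = 0.0373) with a replicate 2 difference of 0.81. The median of the 10 was -0.43 in the batch and 0.55 in replicate 2. Of 8 tested MADS-box genes 0 passed, with medians of 0.24 and -0.57. Of 4 tested bHLH genes (bHLH34, bHLH104, bHLH115 and bHLH121, factors of the iron response) 0 passed, with medians of 0.07 and 0.02.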
